A study of Mus musculus with 36 samples.

Results

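Liver was set against brown adipose tissue (BAT) within the same water-treated mice, to describe which genes were high in which of the 2 tissues. The arrays were chosen by their titles: the 7 liver arrays and the 7 BAT arrays of the water group, 14 of the 36 arrays of the series, joined by the mouse number in the title. All 45037 probe sets of the array that are not controls were compared. The mice were male ddY animals, an outbred stock, 5 weeks old when obtained and acclimated for 1 week. They received water by feeding tube, 37.5 µL per g of body weight, once a day for 5 doses, and tissues were taken 4 h after the final dose, food having been withdrawn that morning. The series also holds white adipose tissue (WAT) of the same mice and the 3 tissues of 5 mice given CAAM, an amino acid mixture modelled on casein.

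Liver and brown fat share a high metabolic rate but do different work. Hepatocytes make most plasma proteins, build lipoproteins and bile acids, detoxify foreign compounds, turn amino nitrogen into urea and release glucose. Brown adipocytes burn fatty acids and glucose in densely packed mitochondria, where uncoupling protein 1 (Ucp1) lets protons return without ATP synthesis, so that the energy leaves as heat, under the control of noradrenaline and cAMP.

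The marker of each tissue stood where its label put it. Alb, the main protein of plasma, had a score of 14.997 on all 7 liver arrays and 6.54 on all 7 BAT arrays, a difference of 8.45. Ucp1 had a score of 6.27 on all 7 liver arrays and 14.17 on all 7 BAT arrays, a difference of -7.90 (liver minus BAT, as for every difference given here). Neither gene overlapped between the tissues, which held for 44985 of all 45037 probe sets (99.9%) too. All 10 hepatocyte markers were at least 1 unit higher in liver, with a median difference of 7.63. Of the 9 brown adipocyte markers 6 were at least 1 unit higher in BAT, Lhx8 and Dio2 differed by -0.64 and -0.05, and Elovl3 was 1.39 higher in liver.

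The values are scores of the distribution free weighted (DFW) method, and their scale decides what can be read from them. The scores ran from 5.43 to 15.3 in liver and from 5.46 to 16.44 in BAT, and reached 19.85 in WAT, which is above what log2 intensities of a scanner reach, so that they are not read as log2 values. Between the 7 arrays of a tissue, however, the median SD of a probe set was 1.03e-05 in liver and 6.89e-06 in BAT, while the median absolute difference between the tissues was 0.23. The array medians were alike within a tissue (6.807 in liver, between 6.780 and 6.782 in BAT) and not between tissues, so that each tissue appears as its own scale, and tissue and DFW run cannot be told apart. A difference is therefore given in score units and not as a fold.

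On this scale limma across arrays called nearly every probe set, so a call hardly sets 1 gene apart from another. By limma, paired by mouse, 45003 of 45037 probe sets (99.9%) had an adjusted p under 0.05, 23653 of them higher in liver (52.5%) and 21350 in BAT (47.4%). The scores of 44985 (99.9%) did not overlap between the tissues. The lean to liver depended on the scale. Of the called probe sets 52.6% were higher in liver, against 48.2% after quantile normalization and 49.2% after centring each array on its median. Rank products of the within-mouse differences, the kind of test the study used for treatments, called 9823 probe sets (21.8%) when 0.05 was allowed as their share of false positives by permutation. Since limma called nearly every probe set, the size of a difference is described in place of its adjusted p. A difference of 1 unit or more together with an adjusted p under 0.05 was found for 2261 probe sets higher in liver (5.02%) and for 2069 higher in BAT (4.59%). With 1 probe set per gene, that of the highest mean over the 14 arrays, 1387 of 18193 genes (7.62%) were 1 unit or more higher in liver and 1128 (6.2%) in BAT. The tails were unequal further out. At 2 units or more there were 662 genes higher in liver (3.64%) and 309 higher in BAT (1.7%). At 4 units or more there were 274 genes higher in liver (1.51%) and 39 higher in BAT (0.214%).

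Since arrays of a tissue hardly differ, differences were compared between separate probe sets of the same gene, which bind other stretches of its transcript. This shows variation between probe sets only. It measures neither variation between mice nor an offset shared by all probe sets of a tissue. Over 4876 genes whose 2 brightest probe sets were both at or above the median level, the difference of one probe set followed that of the other (Pearson r = 0.84 across genes, which are not independent replicates), and the median gap between them was 0.357. Among genes 4 units or more higher in liver, all probe sets had the same direction in 90 of 94 genes, and among those 4 units or more higher in BAT in 16 of 18. Among genes 1 to 2 units apart this held for 322 of 405 higher in liver and for 407 of 556 higher in BAT. Under 1 unit it held for 2028 of 3848 and 1589 of 3705, so that differences of that size are given below as values only.

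**Figure D1:**
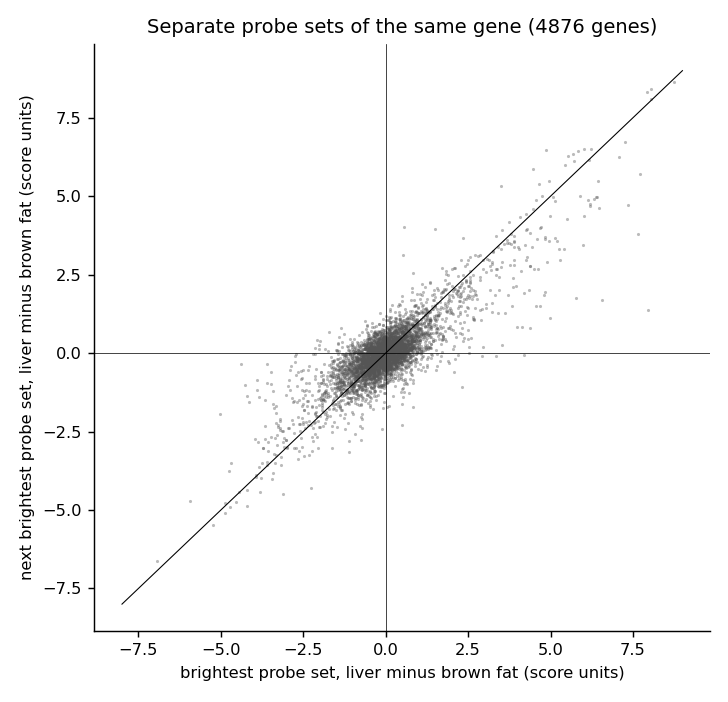
Liver minus BAT in DFW score units for the brightest probe set of a gene (x axis) and the next brightest (y axis), for 4876 genes with both at or above the median level, each a mean of 7 mice. The points lie along the line of equality (r = 0.84), and 1 gene, Epb41l5, was more than 1 unit apart in opposite directions (2.31 and -1.07).

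The largest differences followed the classical products of each tissue. The 15 genes furthest above BAT in liver were Serpina1c, Fabp1, Apoa2, Cyp3a11, Alb, Fgg, Pzp, Apoa1, Ttr, Mup3, Akr1c6, Apoh, Serpina1b, Cyp3a25 and Fga. Their liver scores lay between 13.8 and 15.01 and their BAT scores between 5.93 and 6.84, and 14 of them were below the median of all probe sets in BAT. The scores carry no detection call, so such low scores cannot be told from background, and the exact size and order of these differences are not read further. Serpina1c, a protease inhibitor of plasma, stood at 14.92 in liver and 6.16 in BAT, there at percentile 14.8 of all probe sets. Fabp1, the fatty acid carrier of the hepatocyte, stood at 14.83 and 6.09, with 8.64 and 8.75 from its 2 probe sets.

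The 15 genes furthest above liver in BAT were Adipoq, Ucp1, Cidea, Cox8b, Prkar2b, Pdk4, Cox7a1, Cav1, Slc36a2, Fabp4, Aoc3, Lgals1, Mme, Otop1 and Fasn. Of these 15 genes 11 were below the median of all probe sets in liver, so the same limit holds for their size and order. Adipoq, which encodes the hormone adiponectin, was at 6.07 in liver and 14.005 in BAT. Prkar2b, a regulatory subunit of the cAMP-dependent kinase, stood at 5.91 and 12.84, and its 3 probe sets gave differences from -6.93 to -4.86. Pdk4, which restrains pyruvate dehydrogenase, stood at 6.49 and 13.22. In these 30 genes the 7 scores of a tissue spanned at most 0.00985 units, and in the 10 with several probe sets every probe set had the same direction. The sizes were not always alike. They were furthest apart for Mup3 (8.03 and 0.98), Apoh (7.96 and 1.37) and Mme (-5.01 and -1.95).

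**Figure D2:**
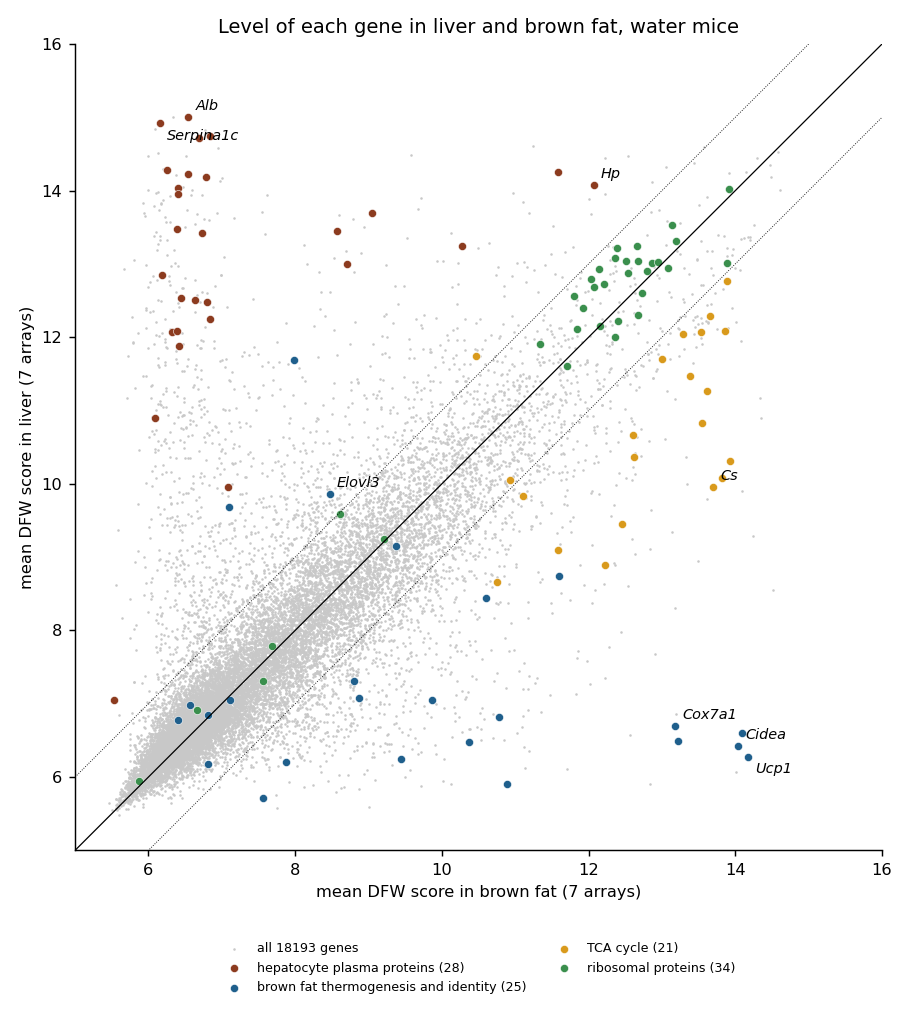
Mean DFW score of each of 18193 genes in BAT (x axis) and liver (y axis) over 7 arrays each, with 4 gene lists in colour, the line of equality and, dotted, 1 unit to either side. Plasma proteins lie above the upper dotted line, most TCA cycle genes below the lower one, and ribosomal protein genes between them.

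The promoters of Alb and Ucp1 are shown because these genes mark the tissues and their promoters differ in CG pairs. Both are the 150 bases before the annotated gene start, from RefSeq promoters of build GRCm38.p6, on the plus strand, with capitals for a match to TTGCNNAA, the letters of a C/EBP-type site on either strand.
Alb, chr5:90460720-90460869: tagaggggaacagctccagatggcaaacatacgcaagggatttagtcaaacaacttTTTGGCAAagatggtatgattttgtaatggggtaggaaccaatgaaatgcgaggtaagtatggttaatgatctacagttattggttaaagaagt
Ucp1, chr8:83290198-83290347: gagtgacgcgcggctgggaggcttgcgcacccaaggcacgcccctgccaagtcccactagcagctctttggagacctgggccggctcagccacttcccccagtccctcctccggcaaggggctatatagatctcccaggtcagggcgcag
The full promoter entry of 300 bases held 3 CG pairs for Alb and 15 for Ucp1. Where a gene had several promoters, the highest count was taken. By this count the median was 4 in the 224 genes with a promoter among the 274 that were 4 units or more higher in liver. It was 18 in the 244 with a promoter among the 309 that were 2 units or more higher in BAT. In all 14452 measured genes with a promoter it was also 18.

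Plasma proteins as a group were far higher in liver. All 28 measured of 37 listed were at least 1 unit higher (median difference 5.82, against 0.04 over all genes). Ahsg, Hpx, Ambp and Azgp1, carriers and inhibitors secreted into plasma, were between 7.40 and 7.68 higher. The smallest differences were those of Serpina7 (1.52), Hp (2.003) and Rbp4 (2.68). Hp, which binds free haemoglobin, was itself high in BAT, at 12.07 against 14.07 in liver, and Rbp4, the carrier of retinol, at 11.58 against 14.26.

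Coagulation and complement genes showed the same side. All 18 coagulation genes were at least 1 unit higher in liver (median 6.05), and 17 after quantile normalization or centring. They ran from Tfpi at 1.002 to the fibrinogen gene Fgg at 8.38, with prothrombin (F2) at 7.21 and plasminogen (Plg) at 7.84. Of 20 complement genes 18 were at least 1 unit higher (median 4.41). C9, of the membrane attack complex, was 7.41 higher, while C1qa, C1qb and C1qc, made by macrophages, were 0.99, 1.12 and 0.89 higher.

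Among 22 genes of lipoprotein assembly and handling 17 were higher in liver by 1 unit or more and 3 in BAT (median 4.48). The structural apolipoproteins Apoa1, Apoa2, Apob and Apoc3 were 7.64 to 8.66 higher in liver. Apoe was at 14.61 in liver and at 11.25 in BAT. The genes higher in BAT act where lipoproteins are unloaded: lipoprotein lipase (Lpl) at 9.90 in liver and 14.09 in BAT, its endothelial anchor Gpihbp1 at 9.38 and 11.21, and Pltp, a phospholipid transfer protein, at 8.53 and 9.94.

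Bile acid genes were higher in liver in every one of the 21 measured (median 4.27). The uptake carriers Slco1b2 and Slc10a1 were 7.26 and 5.82 higher and the export pump Abcb11 5.15. Cyp7a1, the rate-limiting enzyme of bile acid synthesis, was 2.36 higher, with 8.77 in liver, and the repressor Nr0b2 1.67.

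Nitrogen disposal was likewise on the liver side. In the urea cycle list 8 of 10 genes were at least 1 unit higher in liver, led by Arg1 (7.66), Cps1 (7.62) and Otc (7.34). Glul, glutamine synthetase, was higher in BAT by 1.17 units (11.77 in liver, 12.94 in BAT). Of 33 genes of amino acid breakdown 32 were at least 1 unit higher in liver (median 4.42), with Tdo2, Bhmt, Gnmt and Hpd between 7.17 and 7.70. The exception was Gcsh, of the glycine cleavage system, at 11.55 in liver and 11.63 in BAT.

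Branched-chain amino acid breakdown differed from the other amino acids. Of its 20 genes 1 was at least 1 unit higher in liver and 4 in BAT (median -0.54), and the median level was 10.44 in liver and 11.27 in BAT. Bckdk, the kinase that switches the branched-chain dehydrogenase off, was at 7.96 in liver and 9.81 in BAT, and Ppm1k, the phosphatase that switches it on, at 11.02 and 8.98, from 2 probe sets each with the same direction.

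Xenobiotic metabolism was higher in liver by 1 unit or more in 29 of 32 genes and in BAT in 1 (median 5.82). Cyp3a11 stood at 14.48 in liver and 5.99 in BAT. Fmo1, a flavin monooxygenase, was at 10.38 in liver and 12.10 in BAT. Cyp2e1, the ethanol-oxidising P450, was at 14.48 in liver, 9.58 in BAT and 13.997 in WAT.

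Glucose genes were divided. In the list of glucose production and glycogen 9 of 18 were at least 1 unit higher in liver and 4 in BAT (median 1.15). Fbp1, Slc2a2 and G6pc, which carry out and release newly made glucose, were 7.21, 6.32 and 4.54 higher in liver. Pck1, which makes phosphoenolpyruvate for glucose in liver and for glycerol in fat, was at 11.27 in liver and 13.07 in BAT, though its 3 probe sets ranged from -2.1 to 0.5. Glycogenin (Gyg) was 2.52 higher in BAT.

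Ketone body and peroxisomal enzymes were higher in liver by 1 unit or more in 9 of 15 genes and in BAT in 1 (median 1.47). Bdh1, which makes hydroxybutyrate, was 5.39 higher in liver, and Oxct1, which lets a tissue use ketone bodies, was at 7.27 in liver and 12.02 in BAT, with all 4 probe sets in that direction. Of 18 cholesterol synthesis genes 4 were at least 1 unit higher in liver and 3 in BAT (median -0.05), Ebp by 2.86 and Fdft1 by -1.88. Of 14 iron genes 9 were at least 1 unit higher in liver (median 2.10). Hamp, the hormone hepcidin, and Tfr2, which senses transferrin, were 5.70 and 4.46 higher in liver, and Bmp6, which drives Hamp, was 1.48 higher in BAT.

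The brown fat list was split between a very high core and genes of little difference. Of 25 genes 16 were at least 1 unit higher in BAT and 3 in liver (median -1.85). With the probe set of smallest absolute difference for each gene, 10 were higher in BAT. Cidea, of the lipid droplet, stood at 6.42 in liver and 14.04 in BAT. The tissue-restricted cytochrome oxidase subunits Cox8b and Cox7a1 stood at 14.09 and 13.17 in BAT and at 6.60 and 6.69 in liver. Otop1 was at 5.90 and 10.89. The regulators Prdm16, Ppargc1a and Zic1 were 1.67, 1.49 and 1.85 higher in BAT, where their scores were 7.87, 8.80 and 7.56. Higher in liver were Cpn2 (3.71), Slc29a1 (2.59) and Elovl3 (1.39).

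Of 29 genes common to white and brown adipocytes 23 were at least 1 unit higher in BAT and 1, Rbp4, in liver (median -3.37). Fabp4, Cd36 and Pparg stood at 14.51, 13.17 and 11.09 in BAT and at 8.56, 8.30 and 6.68 in liver. The lipases Lipe and Pnpla2, which release fatty acids from droplets, were 4.36 and 3.59 higher in BAT, although 1 of the 2 probe sets of Lipe gave 0.2. Car3, a carbonic anhydrase, was near the top in both tissues, at 14.34 and 14.47.

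Fatty acid synthesis genes leaned to both tissues. In all, 10 of 20 were at least 1 unit higher in BAT and 6 in liver (median -1.05), and 4 were higher in BAT with the probe set of smallest difference. Fasn, Acaca, Acacb, Acly and Elovl6, which make acetyl-CoA into long saturated chains or regulate that flux, were 4.95, 3.47, 3.53, 2.49 and 3.35 higher in BAT. Elovl2, Fads1, Fads2 and Elovl5, which lengthen and desaturate polyunsaturated chains, were 6.13, 3.54, 3.12 and 1.80 higher in liver. The elongase Elovl3 was 1.39 higher in liver. Of the desaturases of saturated chains Scd2 was 2.35 higher in BAT and Scd1 was at 14.52 and 14.59.

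The mitochondrial pathways were higher in BAT. In the TCA cycle 19 of 21 genes were at least 1 unit higher in BAT (median -1.94), and 11 with the probe set of smallest difference. Citrate synthase (Cs) was at 9.95 in liver and 13.70 in BAT, with -3.7 to -3.0 from its 3 probe sets. Idh3a was at 10.08 and 13.81, and Pdha1 at 10.31 and 13.92. Suclg2 was the gene higher in liver (1.28), from both probe sets. Sucla2, the corresponding subunit of the ATP-forming enzyme, was 1.47 higher in BAT. In fatty acid oxidation 13 of 20 genes were at least 1 unit higher in BAT (median -1.11), or 8 with the probe set of smallest difference, Hadhb and Acadl among them at -2.13 and -1.78. Cpt1a, the liver form of the gate of this pathway, was 3.72 higher in liver.

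Of 69 oxidative phosphorylation genes 32 were at least 1 unit higher in BAT and 1 in liver (median -0.95). Their median level was already 12.22 in liver and 13.29 in BAT. Ndufs1 of the first complex was at -1.96, Uqcrc1 of the third complex at -1.50 and Atp5b of ATP synthase at -0.67. Atp5g1, which codes for the ring subunit c of ATP synthase, was at 12.20 in liver and 7.88 in BAT (4.32 from the brighter probe set and 0.1 from the other). The count at 1 unit depended on the scale, since 50 genes passed it after quantile normalization over the 14 arrays.

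Sdhd, of succinate dehydrogenase, was the gene in these lists that followed the mouse. Its liver score was 6.87 in mouse 2 and 9.06 to 9.58 in the other 6 mice, and its BAT score 7.57 in mouse 2 and 12.76 to 13.67 in the others. In WAT mouse 2 was at 6.57 and the others at 8.12 to 8.54. The difference was -3.33 over 7 mice, -0.70 in mouse 2 and -3.77 without it. The second probe set showed mouse 2 lowest in all 3 tissues too, with 6.81 in BAT against 9.03 to 9.52.

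**Figure D3:**
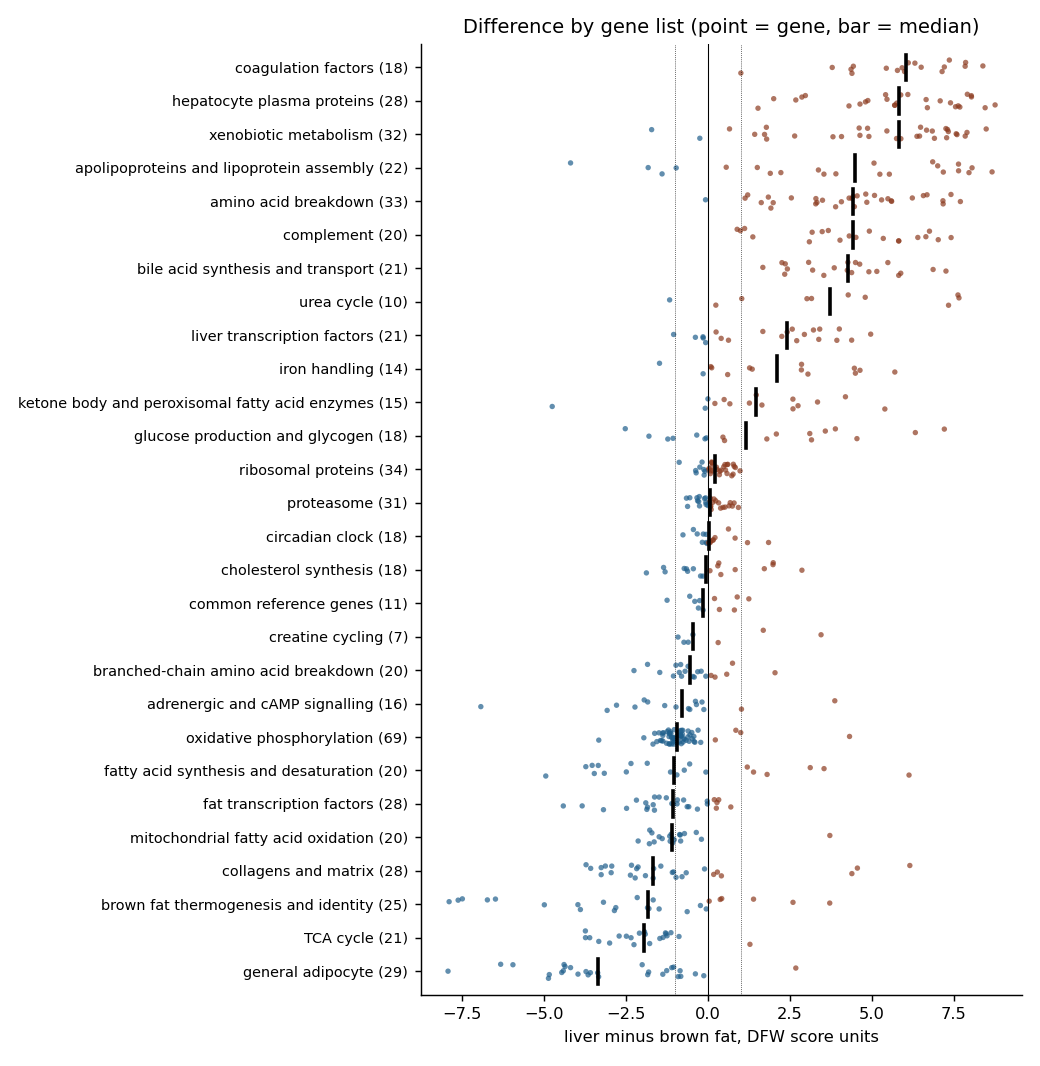
Liver minus BAT in DFW score units (x axis) for every measured gene of 28 gene lists (rows, number of genes in brackets), 1 point per gene as a mean of 7 mice, with the list median as a bar and dotted lines at 1 unit. The medians run from 6.05 for coagulation factors to -3.37 for general adipocyte genes, and the 31 proteasome genes lie within 1 unit of 0.

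Signalling towards heat production was uneven. In the adrenergic and cAMP list 7 of 16 genes were at least 1 unit higher in BAT and 2 in liver (median -0.79), and 4 were higher in BAT with the probe set of smallest difference. Besides Prkar2b, Pde4d and Pde3b, which degrade cAMP, were 3.08 and 1.84 higher in BAT and the catalytic subunit Prkaca 1.95. The glucagon receptor Gcgr was 3.87 higher in liver. In the creatine list Gamt and Gatm, which make creatine, were 3.45 and 1.69 higher in liver, and the other 5 of 7 were within 1 unit.

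Transcription factors differed in part of each list. Of 21 liver factors 13 were at least 1 unit higher in liver (median 2.42), led by Hnf4a at 11.85 and 6.89, Nr1h4 at 10.47 and 6.09 and Creb3l3 at 11.02 and 7.01. Ppara, at 10.98 and 11.13, and Cebpa, at 11.09 and 11.48, were alike in level within 0.4 units, and Cebpb was 1.05 higher in BAT. Of 28 fat factors 15 were at least 1 unit higher in BAT and none in liver (median -1.08), or 8 in BAT with the probe set of smallest difference, with Pparg, Ebf1 and Ebf2 at -4.41, -3.84 and -3.19. Klf15 was the furthest to the liver side, at 0.70.

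Windows of 30 bases are shown for genes whose promoter holds the letters known for HNF1, a factor of the hepatocyte, or for NRF1, a regulator of mitochondrial genes, to set sequence beside group. A gene was counted when any of its promoters held the motif. An HNF1-type motif (GTTAAT, any base and ATT, on both strands) occurred in 11 of 224 genes 4 units or more higher in liver (4.91%). It occurred in none of 244 genes 2 units or more higher in BAT. The share was 0.401% of the 14452 measured genes with a promoter and 0.47% of all 27025 genes with a promoter. The capitals mark the match, and the sequence runs 5′ to 3′ along the gene.
Afm, chr5:90518801-90518830, plus strand: ttttcccctaGTTAATAATTacctagaaat
C4bp, chr1:130661663-130661692, minus strand: gctctagtctGTTAATCATTcaccgggaca
F13b, chr1:139501642-139501671, plus strand: cagacattgtAATTATTAACttgttttgtc
G6pc, chr11:101367485-101367514, plus strand: gtgtgcccaaGTTAATAATTggctctgcca
Pcbd1, chr10:61089297-61089326, plus strand: gaggacccatGTTAATTATTacccgcggcc
These 5 genes were 5.69, 6.40, 6.50, 4.54 and 5.09 higher in liver. They code for a vitamin E binding plasma protein, a complement regulator, a coagulation factor subunit, the glucose-releasing phosphatase and a cofactor of HNF1 itself.

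An NRF1-type motif (GCGCA, any base and GCGC, on both strands) occurred in 14 of 58 oxidative phosphorylation genes with a promoter (24.1%). It occurred in 1 of 224 genes 4 units or more higher in liver (0.446%). For genes 2 units or more higher in BAT the count was 15 of 244 (6.15%). The share was 8.61% of measured genes and 5.19% of all genes with a promoter.
Sdhd, chr9:50603909-50603938, minus strand: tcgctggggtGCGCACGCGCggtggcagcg
Sdha, chr13:74350319-74350348, minus strand: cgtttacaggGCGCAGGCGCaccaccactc
Ndufa8, chr2:36049349-36049378, minus strand: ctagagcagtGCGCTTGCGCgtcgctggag
Ndufs5, chr4:123718265-123718294, minus strand: gctgcttgctGCGCAGGCGCagacccgctg
These 4 genes, chosen with their values known, differed by -3.33, -1.25, -1.21 and -0.95. The 14 oxidative phosphorylation genes with the motif differed by -3.33 to 0.85 (median -0.996), with Ndufb4 0.22 and Atp5g3 0.85 higher in liver, and the 44 without it had a median of -0.98. At 1 unit or more 7 of the 14 and 21 of the 44 were higher in BAT. TTGCNNAA occurred in 9 of 22 plasma protein genes with a promoter (40.9%) and in 6 of 21 general adipocyte genes (28.6%). It occurred in 10.8% of measured genes and in 12.2% of all. A match of letters is a description of the sequence, and binding was not measured.

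Paired genes, mostly forms of an enzyme, carrier or receptor, exchanged places between the tissues in part of the cases. Some pairs join different enzymes, among them Glud1 and Glul (glutamate dehydrogenase and glutamine synthetase) and Adh1 and Aldh2. The list gives the first member of a pair as the liver form, but the values did not always go with that name. First members higher in BAT included Cidec (-4.46), Acaca (-3.47) and Acss2 (-1.85). It is therefore called the first form here, and whether it is restricted to liver was not tested. Of 46 pairs listed both forms were measured in 34. The balance between the forms was shifted to the first form in liver in 29 by the mean and in 28 in every mouse. Such a shift does not need the first form to be higher in liver. The count in every mouse adds little, since arrays of a tissue hardly differ. In 8 pairs the first form was at least 1 unit higher in liver and the other at least 1 unit higher in BAT. For glucose transport Slc2a2 was at 12.35 in liver and 6.02 in BAT, and the insulin-responsive Slc2a4 at 7.21 and 10.87. For fatty acid carriage Fabp1 and Fabp4 shifted by 14.7 against each other, a size that rests on the low score of Fabp1 in BAT (6.09). Pklr and Pkm (pyruvate kinases), Gys2 and Gys1 (glycogen synthases), Fbp1 and Fbp2, Slc27a5 and Slc27a1, Aqp9 and Aqp7 (glycerol channels) and Glud1 and Glul made up the rest.

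In 8 pairs both forms were at least 1 unit higher in BAT, and in 14 both were higher by any size. The 8 included Acaca and Acacb (-3.47 and -3.53), Ldha and Ldhb (-1.23 and -3.93) and Cox8a and Cox8b (-1.61 and -7.49). The pairs Pygl and Pygm, Pfkl and Pfkm, Dgat1 and Dgat2, Pck1 and Pck2 and Cox6a1 and Cox6a2 shifted the other way. An exact two-sided sign-flip test over 7 mice gave p = 0.0156, the smallest that 7 mice allow, for 33 of 34 pairs (adjusted p = 0.0161). It gave 0.641 for Atp2a2 and Atp2a1, whose second form is a muscle gene. On this scale the test says that every mouse agreed in direction in those 33 pairs, not how large a shift was. Since arrays of a tissue hardly differ, even a small shift gives such agreement, and it is no support from replicates. Acaca and Acacb, shifted by 0.065, also agreed in 7 of 7 mice.

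**Figure D4:**
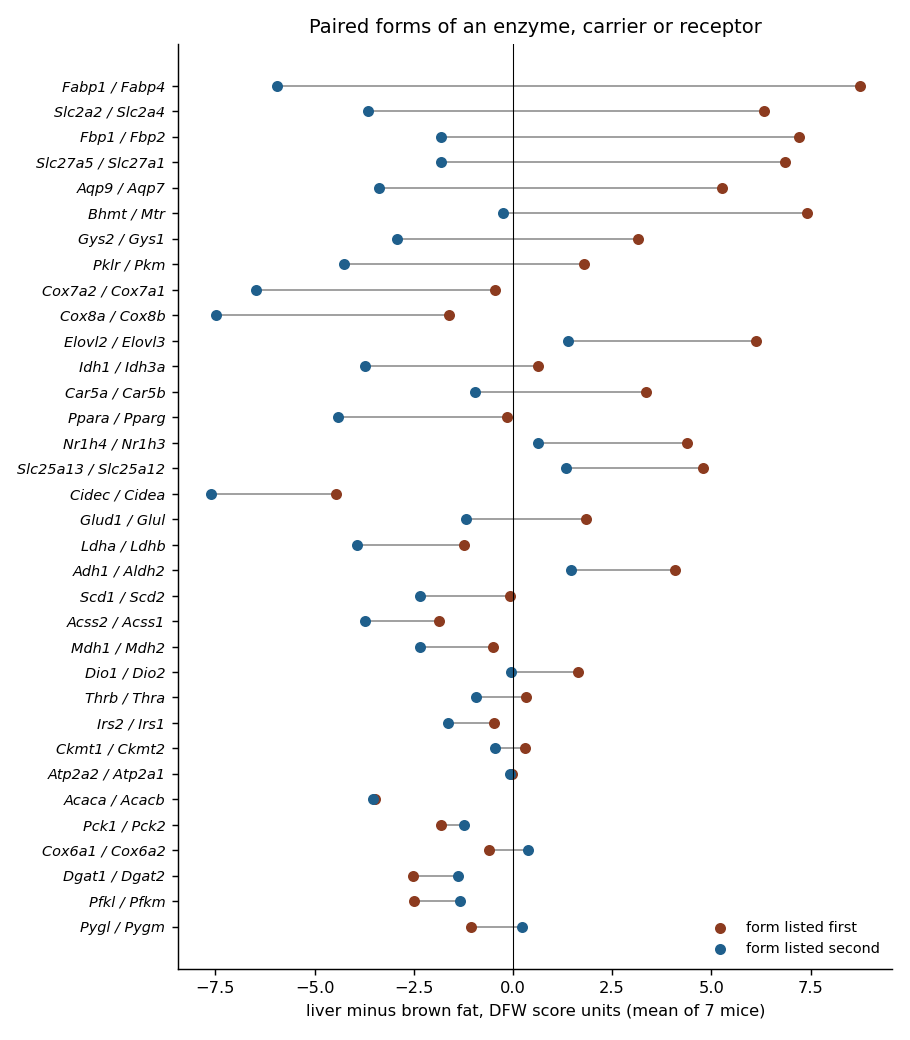
Liver minus BAT in DFW score units (x axis, mean of 7 mice) for both members of 34 pairs, ordered by the shift between them. The member listed first is in brown and the other in blue. Fabp1 and Fabp4 lie furthest apart (14.7 units), and in the 5 lowest pairs, from Pck1 and Pck2 down, the order is turned.

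Genes of basic machinery were close in score. None of 34 ribosomal protein genes and none of 31 proteasome genes was 1 unit or more apart (medians 0.20 and 0.07), where 7.62% and 6.2% of all genes were. Of 11 common reference genes Sdha was 1.25 higher in BAT and B2m 1.25 higher in liver, and Actb and Tbp differed by -0.40 and 0.20. Of 18 clock genes only Rora (1.85) and Nfil3 (1.20) passed 1 unit.

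Other cells of the tissues showed in the lists of their markers. Of 10 Kupffer cell genes 8 were at least 1 unit higher in liver (median 2.72), with Cd5l, Vsig4 and Clec4f at 4.18, 4.14 and 2.86, and of 11 liver sinusoid genes 9 (median 1.86), with Clec4g and Stab2 at 4.89 and 3.53. Of 28 collagen and matrix genes 18 were at least 1 unit higher in BAT (median -1.67), Col3a1 and Col1a2 by 3.72 and 3.58, while Vtn, Fn1 and Col18a1 were 6.16, 4.56 and 4.39 higher in liver. Of 15 endothelial genes 5 were at least 1 unit higher in BAT. Of 10 genes listed as white adipocyte markers 2 were at least 1 unit higher in each tissue. On the liver side the largest difference was 4.71. In BAT they were Retn and P2rx5, which is also known from brown and beige fat. P2rx5 was at 6.59 in liver, 9.26 in BAT and 6.56 in WAT, so it did not mark white fat here. Lep was at 6.43 in liver, 7.34 in BAT and 11.3 in WAT. S100b was at 6.38 in liver, 9.60 in BAT and 6.88 in WAT. Markers of lymphocytes, neutrophils and bile duct had no gene 1 unit apart among 13, 11 and 8. Of these, 7, 6 and 4 were below the median of all probe sets in both tissues, where a low score cannot be told from background. Fewer cells of a type and less RNA per cell cannot be told apart in such tissue samples.

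Skeletal muscle genes set the BAT arrays apart from one another. Of 26 muscle markers 11 were at least 1 unit higher in BAT than in liver. Acta1, skeletal actin, was at 6.59 on every liver array. On the BAT arrays it ran from 7.47 over a median of 8.90 to 16.44, with mice 1, 3 and 7 highest at 16.44, 14.95 and 12.39. Ttn had 12.32, 10.94 and 9.37 in the same mice and 6.49 to 7.06 in the other 4. In mouse 1 24 of the 26 genes were more than 0.1 above their median over the BAT arrays, in mouse 3 20, in mouse 7 17 and in the other 4 mice none. Without mice 1, 3 and 7 the difference of Acta1 was -1.77 in place of -4.44, and 5 muscle markers in place of 11 were 1 unit higher in BAT. Of the 24 genes whose BAT scores had an SD over 0.3, 17 were in the muscle list. The part of muscle in other BAT differences was not tested beyond leaving out these mice, which left Ucp1 at -7.90 and the count of probe sets 1 unit or more higher in BAT at 2063.

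**Figure D5:**
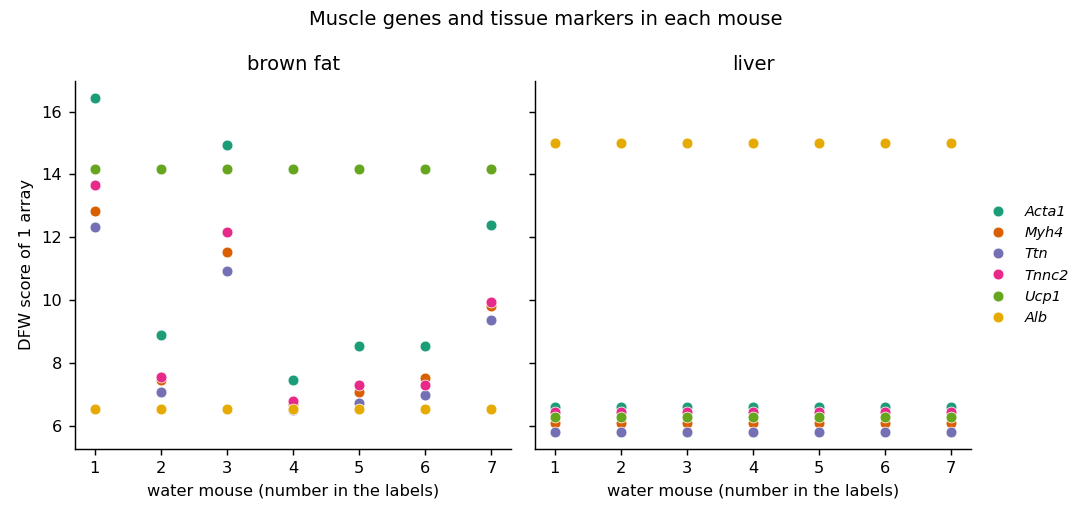
DFW score (y axis) of 4 muscle genes, Ucp1 and Alb on each BAT array (left) and liver array (right) of water mice 1 to 7 (x axis), 1 point per array. The muscle genes are raised in BAT of mice 1, 3 and 7, whereas Ucp1 and Alb keep 1 level per tissue.

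White fat of the same mice was nearer to BAT than to liver for most of these genes, although its scores too are on a scale of their own. Of 309 genes 2 units or more higher in BAT, 188 had WAT above 0.75 of the way from liver to BAT (60.8%) and 48 below 0.25 of it (15.5%). Adipoq, Cav1 and Fabp4 were at 14.51, 14.12 and 14.66 in WAT. The 48 began with Ucp1, Cidea, Cox8b, Cox7a1 and Otop1, at 6.44, 6.77, 8.03, 7.29 and 6.17 in WAT, and included Acot11, Gpd2, Ntrk3, Elovl6 and Acacb. They also held 6 muscle genes, Acta1, Myh1, Myh4, Tnnc2, Ttn and Mylpf, which without mice 1, 3 and 7 were -1.77 to -0.62 and under 2 units, while the other 42 stayed at 2 units or more. Of 662 genes 2 units or more higher in liver, 24 had WAT next to liver (3.63%), led by Gpt2, with 11.85 in liver, 6.71 in BAT and 11.14 in WAT, and Cyp2e1.

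The difference between the tissues was also set against that in the 5 CAAM mice, by limma on the differences within mice. None of 45037 probe sets passed an adjusted p of 0.05 (lowest 0.187), and 2787 had an unadjusted p under 0.05. The difference in CAAM mice departed from that in water mice by a median of 7.1e-06 units and by more than 0.1 for 54 probe sets. CAAM arrays lie on the scale of the same tissue, so that this is no separate measure of liver against BAT.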

How the data were processed

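RNA of each tissue was hybridised to Affymetrix mouse expression arrays. From the CEL files the authors computed DFW scores in R (2.7.2 per the labels) with Bioconductor, and these scores, 1 for each probe set on each array, were deposited. Of 45101 probe sets 64 controls were left out, and no value was missing. By the platform annotation 34945 probe sets carried 1 symbol, 932 several and 9160 none, for 18193 symbols. Separate probe sets of a gene were compared, since arrays of a tissue hardly differ, and this gives no error between mice.

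The authors' comparison by rank products of treatments was replaced, for liver against BAT, by limma 3.58.1 (R 4.3.3) with the mouse as a block and Benjamini-Hochberg adjustment over all probe sets, and the design had assumed log2 values, which the scores did not meet. Mouse numbers were taken as animals, since the study took all tissues of a mouse. Standardised deviations of the 2 tissues correlated at 0.0759 to 0.164 within a mouse, and 5 of 7 livers correlated best with the BAT of their own mouse. On simulated data limma found 1 of 50 probe sets shifted by 2 SD, 27 of 50 by 4 SD and 47 of 50 by 6 SD. It called 7 of 44837 probe sets that were not shifted. The simulation held no offset between tissues. In the real data the median absolute difference was 22319 times the median liver SD, so the simulation does not bear on the tissue calls. Lists were described by counts at 1 unit and medians, with 765 of 859 listed symbols measured, 6 through a synonym. The members, lists and pairs were chosen with earlier results of these data known. The text names the 15 largest differences per direction, Alb, Ucp1, list members with the largest differences or against their list, pairs, and genes that stand apart among arrays. Other genes named were chosen after their values were seen. Motifs were searched in 32851 RefSeq promoters of 300 bases, 250 of them before the gene start. Alternatives were other scalings, filters, probe set choices, rank products with 100 permutations, and leaving out mice. The mixture VAAM was not analysed here. Python 3.11.15 with numpy 2.4.6 and pandas 2.3.3 was used.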

Additional observations from a re-analysis of the deposited data

Results flagged for a closer look

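For 195 genes named above, the 7 differences within mice were examined for a single mouse set apart, measured by its gap to the nearest other mouse as a share of the range. By chance about 1 in 20 independent genes would be marked, and 10 (5.13%) were. Genes that stand apart among arrays were among those named, and all genes share the same 7 mice. The share is therefore not compared with chance. Sdhd had a share of 0.832, with mouse 2 apart over a range of 3.39 units. The other 9 ranged over at most 0.0224 units, which is under any difference described. They were Slc10a1 (0.798, mouse 5), Cd5l (0.707, mouse 6), Tbp (0.681, mouse 2), Gatm (0.646, mouse 6), S100b (0.645, mouse 5), Sdha (0.618, mouse 1), Bckdk (0.61, mouse 3), Creb3l3 (0.583, mouse 3) and Cebpb (0.573, mouse 6).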

How the results depend on the processing

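The count of probe sets called stayed between 44941 and 45008 under the other scalings, eBayes with trend and robust, no replicate block and leaving out mice, among them 44991 to 45002 without each mouse in turn. Without the pairing by mouse (no replicate block) it was 45008, and the counts at 1 unit or more were 2261 higher in liver and 2071 higher in BAT, so that the block changed no other count described. Without probe sets below the array median on all 14 arrays, 25979 were called and 25970 did not overlap, since fewer were tested. Rank products called 9823. At 2 units or more 976 probe sets were higher in liver and 550 in BAT. Leaving out each mouse gave 2260 to 2261 higher in liver and 2068 to 2071 higher in BAT at 1 unit. It gave 44986 to 44992 without overlap, and 28 to 29 pairs shifted to the form listed first. Quantile normalization gave 2107 higher in liver and 2365 in BAT at 1 unit, and 50 oxidative phosphorylation genes. With the probe set of smallest absolute difference for each gene, the counts higher in BAT fell to 10 for brown fat identity. They fell to 4 for fatty acid synthesis, 8 for fatty acid oxidation and 11 for the TCA cycle. Adrenergic signalling had 4 and fat transcription factors 8. The listed counts higher in liver stayed within 1.5 times. Plasma proteins had 26, coagulation factors 17, complement 15 and bile acid genes 18, while xenobiotic metabolism and the urea cycle kept 29 and 8. This choice leaves genes with 1 probe set as they are. In CAAM against water mice leaving out mice gave 0 to 1 calls, with 1 (Luc7l) without water mouse 7 and 1 (Lrit1) without CAAM mouse 7. No list median of 1 unit or more changed sign. Leaving out mice 1, 3 and 7 was chosen after seeing the data.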
